A study of Mus musculus with 8 samples.

Results

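RNA levels of 10 macrophage surface and scavenger receptor genes were followed in mouse macrophages carrying different versions of STING, the adaptor that relays cytosolic DNA sensing. The genes are Adgre1, Cd14, Cd68, Fcgr1, Fcgr3, Mertk, Mrc1, Msr1, Cd36 and Trem2. They were taken by name from a table of 53715 genes, and all 10 were found. The list was chosen with earlier results of these data known. Poly(A) RNA-seq had been made from 8 libraries, 2 in each of 4 groups. The zfCTT group stably expressed mSTING-zfCTT, mouse STING carrying the zebrafish C-terminal tail, the mSTING group stably expressed mouse STING, and the dCTT group mSTING-dCTT, mouse STING with its C-terminal tail deleted. The no_transgene group, titled MSCV2.2, had no STING transgene. Cells of all 4 groups were Sting-/- and had received 500 µg/ml CMA (10-carboxymethyl-9-acridanone, a ligand of mouse STING) for 4 h, so that no unstimulated cells were compared. Whether a group's 2 libraries were grown as separate cultures is not stated, so p-values reflect library-to-library spread alone, which may be technical.

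Macrophages recognise microbes, antibody-coated particles and dying cells through receptors of several families. Fc gamma receptors bind the constant part of IgG, and the activating ones signal through the shared Fc receptor gamma chain. Scavenger receptors take up modified lipoproteins and polyanionic ligands, and lectin and TAM-family receptors bind glycans and the surface of apoptotic cells. TREM2 binds lipids and signals through the adaptor TYROBP. The gene Fcgr1 is a textbook target of interferon signalling, and several of the other receptors are known to differ between resting and activated macrophages.

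Values are RPKM, the reads per kilobase of exon scaled to library size that the authors deposited. Their sum over all genes is not the same in each library. It ran from 732562 in zfCTT replicate 1 to 917533 in dCTT replicate 1. Levels in different libraries are therefore on a similar but not an identical scale. Depth recovered from the steps of the values was 20.1 and 34.8 M reads in zfCTT, 88.1 and 88.2 M in mSTING, 55.7 and 171 M in dCTT, and 27.7 and 101 M in no_transgene. Tmem173, the gene of STING, read 14.2 and 20.6 RPKM in zfCTT, 10.6 and 22.2 in mSTING, 22.7 and 14.98 in dCTT, and 3.23 and 2.42 in no_transgene. On the first principal component of the 13475 tested genes, which held 38.2% of the variance, zfCTT replicate 1 lay at -65.4 and zfCTT replicate 2 at -19.3. On the second, with 37.0%, no_transgene replicate 1 lay at 59.7 and dCTT replicate 1 at 30.7. Of 10 macrophage markers, 9 reached 1 RPKM in at least 1 library, all but Mertk. The markers include the members Adgre1, Cd14, Cd68, Fcgr1 and Mertk, so they are no separate check on the members. The summed level of the 10 markers was 859 to 1050 RPKM in zfCTT, 836 to 991 in mSTING, 1061 to 1091 in dCTT and 1167 to 1289 in no_transgene. Of the marker lists for 8 other cell types, Lck was the single gene to reach 1 RPKM, while Cd3e and Cd8a of the same T cell list were at 0 in every library. The T cell list summed to 1.87 to 2.08 RPKM in zfCTT, 1.33 to 1.70 in mSTING, 0.711 to 0.842 in dCTT and 0.50 to 1.03 in no_transgene, nearly all of it Lck, and its part in the results below was not tested. In bulk RNA, fewer cells of a type and less RNA per cell cannot be told apart.

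Fcgr1 read higher in zfCTT than in any other group, Fcgr3 read lower in zfCTT and mSTING than in dCTT and no_transgene, and Cd68 and Cd14 were the most abundant of the 10 in every library. None of these differences passed the test across all genes. The test was limma's moderated two-sided test on log2(RPKM + 1) with Benjamini-Hochberg adjustment over the 13475 genes that reached 1 RPKM in at least 2 libraries, at a threshold of 0.05. Mertk and Mrc1 did not reach that level and were not tested, which left 8 members. Between zfCTT and no_transgene, 0 of the 8 passed by limma and 0 by voom on recovered reads. Of all genes, 1.08% passed there by limma, and 53 of 13457 by voom. At an unadjusted p under 0.05 there were 4 by limma and 3 by voom. Of all genes these were 13.4% by limma, and 1489 of 13457 by voom.

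Counts were likewise 0 of 8, by limma and by voom, in each of the other comparisons. Between mSTING and no_transgene, where 0.0% of all genes passed, 2 members had an unadjusted p under 0.05 by limma (3.47% of all genes) and 2 by voom. Between dCTT and no_transgene, with 0.0% of all genes, the numbers were 1 by limma (0.267% of all genes) and 1 by voom. Between zfCTT and mSTING, with 0.119% of all genes, they were 1 by limma (11.0% of all genes) and 2 by voom. Between dCTT and mSTING, with 0.0% of all genes, they were 1 by limma (2.49% of all genes) and 1 by voom. Between zfCTT and dCTT, with 1.08%, they were 2 by limma (12.7% of all genes) and 2 by voom. Of all 13457 genes tested by voom, 0, 0, 8, 0 and 169 passed in these comparisons, in the order given. Those with an unadjusted p under 0.05 by voom numbered 511, 20, 1307, 442 and 1521. A count of 0 of 8 is near the share over all genes in each of the 6 comparisons.

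**Figure D1:**
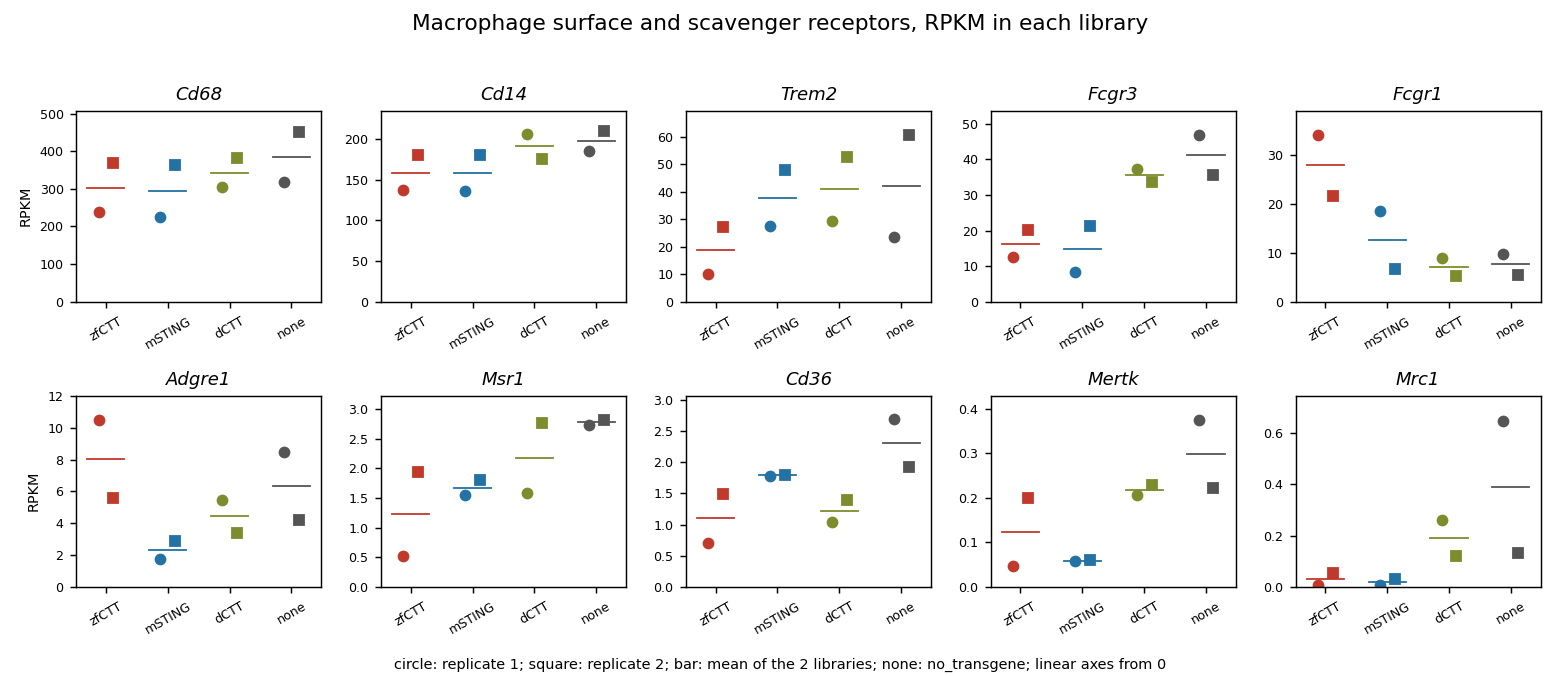
RPKM of the 10 receptor genes, 1 panel each on a linear axis from 0, with 1 point per library, a bar at the group mean and groups in the order zfCTT, mSTING, dCTT and no_transgene (none). Fcgr1 is highest in the 2 zfCTT libraries (34.0 and 21.6), Fcgr3 is lower in zfCTT and mSTING than in dCTT and no_transgene, and Mertk and Mrc1 stay under 1.

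Among the Fc receptors, Fcgr1 encodes the high-affinity IgG receptor. Its gene lies on chromosome 3 at 96282909 to 96293969, minus strand, in GRCm38. It read 34.0 and 21.6 RPKM in zfCTT, 18.5 and 6.71 in mSTING, 8.93 and 5.22 in dCTT, and 9.83 and 5.38 in no_transgene. Both zfCTT libraries were above every other library, while the mSTING pair overlapped no_transgene. The means were 27.8 ± 8.77 RPKM in zfCTT, 12.6 ± 8.32 in mSTING, 7.07 ± 2.62 in dCTT and 7.61 ± 3.15 in no_transgene (SD, n = 2 each).

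The fitted log2 fold change of Fcgr1 was 1.76 ± 0.51 (SE) in zfCTT over no_transgene, with an unadjusted 95% interval of 0.53 to 2.99 and a limma adjusted p of 0.204. It was the member with the smallest p in that comparison. Over dCTT it was 1.84 ± 0.51 (limma adjusted p = 0.204) and over mSTING 1.20 ± 0.51 (limma adjusted p = 0.465). These 3 comparisons share the zfCTT libraries and are not separate evidence. Without zfCTT replicate 1, which stood apart, the value over no_transgene was 1.45. On leaving out any 1 library it ran from 1.38 to 2.14, with 2.14 reached without no_transgene replicate 1. Over mSTING it ran from 0.53 without mSTING replicate 2 to 1.87 without mSTING replicate 1.

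Fcgr3 encodes a low-affinity activating IgG receptor and lies on chromosome 1 at 171051174 to 171064935, minus strand. It read 12.7 and 20.05 RPKM in zfCTT, 8.33 and 21.2 in mSTING, 37.4 and 33.6 in dCTT, and 46.9 and 35.7 in no_transgene. All 4 zfCTT and mSTING libraries were below all 4 dCTT and no_transgene libraries, a split that was noticed in these values. How many of all genes split this way was not counted. The means were 16.4 ± 5.22 RPKM in zfCTT, 14.7 ± 9.07 in mSTING, 35.5 ± 2.69 in dCTT and 41.3 ± 7.92 in no_transgene (SD, n = 2 each).

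The log2 fold change of Fcgr3 was -1.30 ± 0.43 (SE) in zfCTT over no_transgene (95% interval -2.32 to -0.29, limma adjusted p = 0.262). It was -1.54 ± 0.43 in mSTING over no_transgene (limma adjusted p = 0.840) and 1.34 ± 0.43 in dCTT over mSTING (limma unadjusted p = 0.0172, adjusted p = 1). Without mSTING replicate 1 the values were -0.92 in mSTING over no_transgene and 0.72 in dCTT over mSTING. In dCTT over no_transgene it was -0.20 ± 0.43, with overlapping libraries. Of the 1733 stretches of 50 bases in the Fcgr3 exons, 166 (9.58%) also occur in Fcgr2b, the inhibitory IgG receptor gene, and how the authors assigned such reads is not given in the sources used here. Fcgr2b itself read 1.58 and 2.50 RPKM in zfCTT, 1.27 and 2.25 in mSTING, 2.45 and 3.13 in dCTT, and 2.50 and 3.36 in no_transgene. Its level was below that of Fcgr3 in every library.

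The means of Fcgr1 and Fcgr3 lay in opposite order between zfCTT and no_transgene, and their ratio within a library was also computed, after their values had been seen. It was 2.69 and 1.079 in zfCTT, 2.22 and 0.317 in mSTING, 0.239 and 0.155 in dCTT, and 0.210 and 0.151 in no_transgene. Fcgr1 exceeded Fcgr3 in both zfCTT libraries and in mSTING replicate 1. In the other mSTING library, and in all dCTT and no_transgene libraries, Fcgr3 was the higher of the pair.

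**Figure D2:**
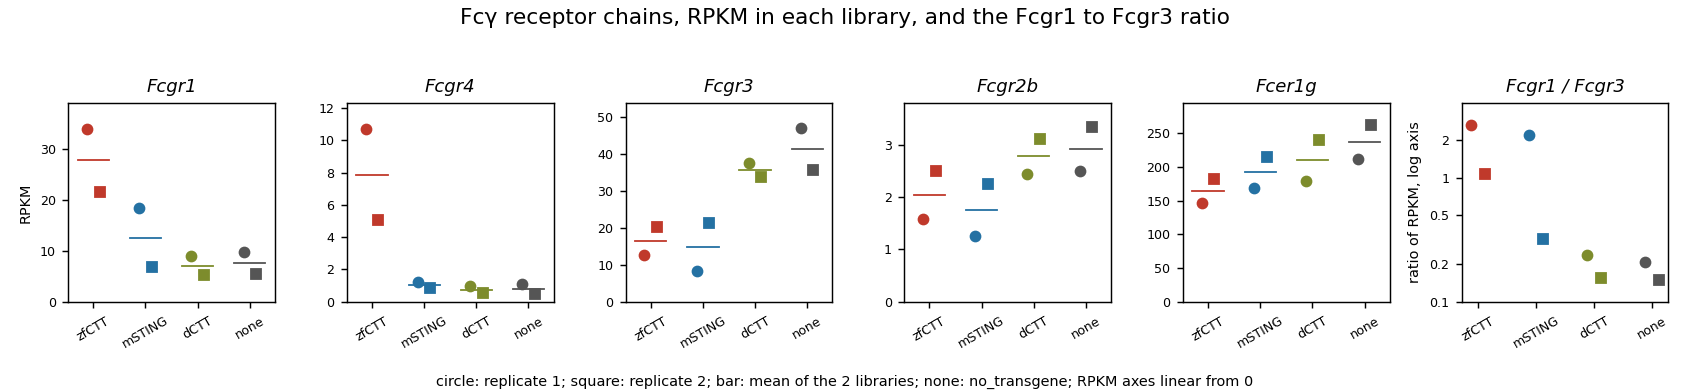
RPKM of Fcgr1, Fcgr4, Fcgr3, Fcgr2b and Fcer1g (linear axes, bar at the group mean) and the ratio of Fcgr1 to Fcgr3 (log axis) in each library, by group in the order zfCTT, mSTING, dCTT and no_transgene. The ratio is above 1 in both zfCTT libraries (2.69 and 1.079) and in mSTING replicate 1 (2.22), and below 1 in the other 5.

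Start-site sequence of the Fc receptor genes was read from the RefSeq table on GRCm38.p6, which gives 250 bases before to 50 bases after a start site, 5′ to 3′ on the gene's strand. Windows were found for 7 of the 10 members, all but Adgre1, Cd14 and Msr1. For Fcgr3 the table holds a pair of windows, of which the first is given. Both lie inside the gene span given above, away from its 5′ end at 171064935. Shown are the windows of Fcgr1 and Fcgr3, the members with the largest fold changes from no_transgene, and of Fcgr4, a related IgG receptor gene. No motif is marked in them.
Fcgr1, chr3:96293920-96294219, minus strand: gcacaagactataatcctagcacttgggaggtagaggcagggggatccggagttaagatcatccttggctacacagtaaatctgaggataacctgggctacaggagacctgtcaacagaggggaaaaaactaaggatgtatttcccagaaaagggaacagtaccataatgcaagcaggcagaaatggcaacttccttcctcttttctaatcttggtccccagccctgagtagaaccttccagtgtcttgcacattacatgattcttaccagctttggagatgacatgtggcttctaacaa
Fcgr3, chr1:171059354-171059653, minus strand: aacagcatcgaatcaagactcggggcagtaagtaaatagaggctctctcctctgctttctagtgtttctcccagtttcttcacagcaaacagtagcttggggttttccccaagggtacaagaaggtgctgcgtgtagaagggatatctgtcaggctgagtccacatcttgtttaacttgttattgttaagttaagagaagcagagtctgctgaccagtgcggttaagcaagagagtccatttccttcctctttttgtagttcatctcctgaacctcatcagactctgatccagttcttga
Fcgr4, chr1:171018676-171018975, plus strand: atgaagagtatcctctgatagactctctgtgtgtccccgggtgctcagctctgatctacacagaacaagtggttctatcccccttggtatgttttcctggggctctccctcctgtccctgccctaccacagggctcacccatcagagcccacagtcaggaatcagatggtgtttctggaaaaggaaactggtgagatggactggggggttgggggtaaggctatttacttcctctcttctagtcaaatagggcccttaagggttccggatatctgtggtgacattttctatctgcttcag

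Fcgr4, a low-affinity receptor for some IgG subclasses, was the single gene of a companion list that passed the test. It lies on chromosome 1 at 171018920 to 171029761, plus strand, near Fcgr3. It read 10.7 and 5.08 RPKM in zfCTT, 1.24 and 0.831 in mSTING, 0.944 and 0.525 in dCTT, and 1.06 and 0.472 in no_transgene. Both zfCTT libraries stood above all 6 others. Fcgr4 rose in zfCTT over no_transgene by 2.27 ± 0.35 (log2 fold change, SE; limma adjusted p = 0.0454) and over dCTT by 2.29 ± 0.35 (limma adjusted p = 0.0428). Over mSTING it was 2.06 ± 0.35 (limma adjusted p = 0.153), past the threshold with protein-coding genes alone (adjusted p = 0.0394; 0.0314 to 0.617 over 19 settings). The call over no_transgene ended with a pseudocount of 0.1, without a filter, with the 2 groups alone, with voom (adjusted p = 0.0646) and on leaving out any 1 library other than zfCTT replicate 2; over 19 settings the adjusted p ran from 0.0118 to 0.336. The fold change over no_transgene was 1.80 to 2.75 on leaving out 1 library, and 3.48 by voom, whose log2 scale has no pseudocount of 1 RPKM. The call over dCTT ended under the same settings except voom (adjusted p = 0.0377), with a range of 0.0111 to 0.313.

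No other companion in the Fc receptor group passed. Fcer1g, the shared gamma chain through which FCGR1, FCGR3 and FCGR4 signal, read 147 and 182 RPKM in zfCTT, 169 and 215 in mSTING, 180 and 240 in dCTT, and 212 and 262 in no_transgene. Its fold change in zfCTT over no_transgene, -0.52 ± 0.24 on the log2 scale, did not pass (limma adjusted p = 0.422). Fcrls, an Fc receptor-like gene, read 1.03 and 0.714 RPKM in zfCTT, 4.39 and 2.33 in mSTING, 12.6 and 5.06 in dCTT, and 16.9 and 5.91 in no_transgene. Both zfCTT libraries were the lowest of the 8, at a log2 fold change of -2.58 ± 0.55 over no_transgene (limma adjusted p = 0.0978).

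Cd68 encodes a glycoprotein of endosomes and lysosomes that also reaches the cell surface. It lies on chromosome 11 at 69664213 to 69666153, minus strand. It read 238 and 368 RPKM in zfCTT, 225 and 363 in mSTING, 304 and 382 in dCTT, and 317 and 450 in no_transgene. Every pair of groups overlapped, and the largest fold change from no_transgene was -0.40 ± 0.34 in mSTING.

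Cd14, on chromosome 18 at 36725067 to 36726798, encodes the co-receptor that passes lipopolysaccharide to TLR4. It read 138 and 180 RPKM in zfCTT, 136 and 181 in mSTING, 206 and 176 in dCTT, and 185 and 210 in no_transgene. Both zfCTT libraries and both mSTING libraries were below both no_transgene libraries, but by fold changes of -0.32 ± 0.23 and -0.33 ± 0.23, which did not pass. The 95% interval in zfCTT over no_transgene ran from -0.88 to 0.23 on the log2 scale.

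Trem2 lies on chromosome 17 at 48346401 to 48354147, plus strand. It read 10.2 and 27.2 RPKM in zfCTT, 27.4 and 47.9 in mSTING, 29.3 and 52.7 in dCTT, and 23.6 and 60.6 in no_transgene. Both zfCTT libraries were below both mSTING and both dCTT libraries and overlapped no_transgene. The closest of these were zfCTT replicate 2 and mSTING replicate 1. Their exact 95% Poisson intervals, which cover counting error alone, overlapped (26.4 to 28.0 and 26.9 to 27.9 RPKM). Replicate 1 was the lower library in every group, and the higher library of a group held 1.75 to 2.67 times the level of the lower. Fold changes in zfCTT were -1.13 ± 0.62 over no_transgene (limma adjusted p = 0.499), -1.07 ± 0.62 over mSTING (0.517) and -1.19 ± 0.62 over dCTT (0.4996). The first of these was -0.47 without zfCTT replicate 1 and also without no_transgene replicate 2. It was -1.80 without zfCTT replicate 2 and also without no_transgene replicate 1.

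Its adaptor Tyrobp read 272 and 404 RPKM in zfCTT, 508 and 635 in mSTING, 518 and 664 in dCTT, and 604 and 803 in no_transgene. The zfCTT libraries were below all others, at -1.07 ± 0.28 over no_transgene (limma adjusted p = 0.161). Hcst, the sister adaptor, read 3.87 and 5.29 in zfCTT, 7.57 and 9.32 in mSTING, 10.9 and 9.28 in dCTT, and 11.3 and 10.5 in no_transgene, again lowest in zfCTT, at -1.10 ± 0.20 (limma adjusted p = 0.0615). Neither passed.

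**Figure D3:**
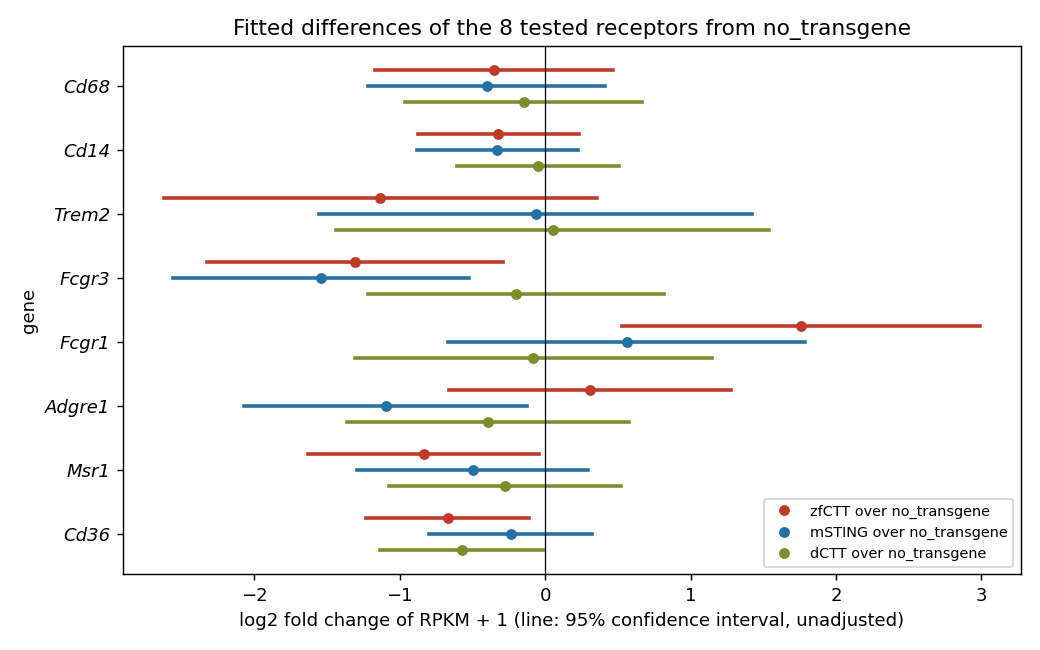
Log2 fold change of RPKM + 1 over no_transgene for the 8 tested members in zfCTT, mSTING and dCTT, with unadjusted 95% intervals. Fcgr1 in zfCTT (1.76) and Fcgr3 in mSTING (-1.54) lie furthest from 0; no point passed the adjusted threshold.

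Msr1 encodes scavenger receptor A, which binds modified lipoproteins and bacterial surfaces, and Cd36 a scavenger receptor for oxidised lipids and fatty acids. Msr1, on chromosome 8 at 39581685 to 39642673, read 0.527 and 1.94 RPKM in zfCTT, 1.56 and 1.80 in mSTING, 1.59 and 2.77 in dCTT, and 2.74 and 2.82 in no_transgene. Both zfCTT and both mSTING libraries were below both no_transgene libraries. The log2 fold change was -0.84 ± 0.33 in zfCTT over no_transgene (limma adjusted p = 0.352). Without zfCTT replicate 1, for which 67 reads were recovered, the value was -0.36.

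Cd36, on chromosome 5 at 17781690 to 17888801, read 0.708 and 1.497 RPKM in zfCTT, 1.79 and 1.80 in mSTING, 1.04 and 1.39 in dCTT, and 2.69 and 1.93 in no_transgene. All 6 libraries with a transgene were below both libraries without one. The closest of these were mSTING replicate 2 and no_transgene replicate 2. Their exact 95% Poisson intervals, 1.65 to 1.95 and 1.79 to 2.08 RPKM, overlapped. The split was noticed in these values, and how many of all genes split this way was not counted. The log2 fold change was -0.67 ± 0.23 in zfCTT over no_transgene (limma adjusted p = 0.295; -0.40 without zfCTT replicate 1), -0.24 ± 0.23 in mSTING over no_transgene and -0.57 ± 0.23 in dCTT over no_transgene (limma adjusted p = 1).

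Adgre1, on chromosome 17 at 57358691 to 57483527, encodes an adhesion G protein-coupled receptor used as a marker of mouse macrophages. It read 10.5 and 5.58 RPKM in zfCTT, 1.78 and 2.89 in mSTING, 5.49 and 3.41 in dCTT, and 8.47 and 4.22 in no_transgene. The mSTING libraries were the lowest 2 of the 8, and the zfCTT libraries were above both dCTT libraries. The closest of the latter, zfCTT replicate 2 and dCTT replicate 1, had overlapping exact 95% Poisson intervals (5.16 to 6.04 and 5.15 to 5.84 RPKM). In zfCTT over mSTING the log2 fold change was 1.40 ± 0.41 (limma unadjusted p = 0.0115, adjusted p = 0.385), and in mSTING over no_transgene -1.10 ± 0.41 (limma unadjusted p = 0.0322, adjusted p = 0.840). In zfCTT over no_transgene it was 0.31 ± 0.41, with overlapping libraries.

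Mertk, a TAM-family receptor for apoptotic cells, and Mrc1, the mannose receptor, were low. Mertk read 0.0460 and 0.199 RPKM in zfCTT, 0.0576 and 0.0602 in mSTING, 0.207 and 0.230 in dCTT, and 0.374 and 0.223 in no_transgene. Mrc1 read 0.00783 and 0.0541 RPKM in zfCTT, 0.00712 and 0.0303 in mSTING, 0.259 and 0.121 in dCTT, and 0.645 and 0.130 in no_transgene. For Mrc1 these are 1 and 12 reads in zfCTT, 4 and 17 in mSTING, 92 and 132 in dCTT, and 114 and 84 in no_transgene. The exact 95% Poisson interval of the single Mrc1 read in zfCTT replicate 1 ran from 0.000198 to 0.0436 RPKM, which covers counting error alone. With no filter on low values, limma gave Mrc1 a log2 fold change of -0.40 ± 0.18 in zfCTT over no_transgene (adjusted p = 0.497). For both genes all 4 zfCTT and mSTING libraries were below all 4 dCTT and no_transgene libraries. For Mertk the closest of these were zfCTT replicate 2 (30 reads) and dCTT replicate 1 (50 reads). Their Poisson intervals, 0.134 to 0.284 and 0.154 to 0.273 RPKM, overlapped. The split was noticed in these values, and how many of all genes split this way was not counted. At such levels the log2(RPKM + 1) scale shrinks any difference, counting error included.

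Read over the 8 tested members, the median log2 fold change was -0.51 in zfCTT, -0.37 in mSTING and -0.17 in dCTT over no_transgene, against -0.04, -0.04 and -0.01 for all genes. Members whose libraries did not overlap with those of no_transgene numbered 5 of 8 in zfCTT, 5 in mSTING and 1 in dCTT. Among all genes 39.6% did not overlap in zfCTT, 32.3% in mSTING and 14.4% in dCTT. Against other groups, 4 of 8 did not overlap in zfCTT over mSTING (49.4% of all genes), 3 in dCTT over mSTING (29.0%) and 4 in zfCTT over dCTT (44.8%). Some counts include members whose closest libraries had overlapping Poisson intervals, such as Trem2 in zfCTT over mSTING and Adgre1 in zfCTT over dCTT.

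Cd68 had the highest mean level in every group, followed by Cd14, and the libraries of the pair did not overlap within any group. Next came Fcgr1 in zfCTT and Trem2 in the other groups. Of neighbours in the order of means, Fcgr1 and Trem2 overlapped in zfCTT, as did Trem2 and Fcgr3 in zfCTT, dCTT and no_transgene but not in mSTING. Fcgr3 and Fcgr1 overlapped in mSTING, as did Adgre1 and Cd36, and Fcgr1 and Adgre1 overlapped in dCTT and no_transgene. Mertk and Mrc1 overlapped in zfCTT, dCTT and no_transgene but not in mSTING. Msr1 and Cd36 overlapped in zfCTT and mSTING, whereas Msr1 was above Cd36 in both dCTT and both no_transgene libraries. Overlapping neighbours have no order beyond the spread of their libraries.

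Companion genes of the same families, 96 in 11 groups, were read alongside. Of the 94 found in the table, 53 were tested. Fcgr4 was the 1 that passed between zfCTT and no_transgene, where 13 of 53 had an unadjusted p under 0.05 (4 higher, 9 lower; 13.4% of all genes), and the 1 that passed between zfCTT and dCTT, where 13 did (5 higher, 8 lower; 12.7% of all genes). None of the 53 passed in the other comparisons, where the numbers at an unadjusted p under 0.05 were 3 between mSTING and no_transgene (3.47% of all genes), 0 between dCTT and no_transgene (0.267%), 8 between zfCTT and mSTING (11.0%) and 0 between dCTT and mSTING (2.49%). The companions' median log2 fold change was -0.25 in zfCTT, -0.31 in mSTING and -0.11 in dCTT over no_transgene.

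Among scavenger receptors, Cxcl16, which encodes a membrane-bound chemokine that also takes up oxidised lipids, read 91.6 and 41.1 RPKM in zfCTT, 31.9 and 17.3 in mSTING, 18.7 and 18.2 in dCTT, and 19.8 and 18.4 in no_transgene. Its log2 fold change in zfCTT over no_transgene was 1.63 ± 0.42 (limma adjusted p = 0.153), and Colec12, a collectin-like scavenger receptor, had -1.29 ± 0.46 (limma adjusted p = 0.298). Among genes for the clearance of dying cells, Gas6, the bridging ligand of the TAM receptors, read 0.411 and 5.59 RPKM in zfCTT, 1.25 and 5.12 in mSTING, 7.36 and 18.1 in dCTT, and 6.44 and 26.8 in no_transgene. Every zfCTT and mSTING library was below every dCTT and no_transgene library. That split was noticed in these values, and how many of all genes split this way was not counted. The libraries of a group lay far apart, and the zfCTT over no_transgene difference of -2.24 ± 0.97 did not pass (limma adjusted p = 0.388). Mfge8, another bridging protein, had -0.41 ± 0.39.

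The remaining companions were named as the widest of each group in zfCTT over no_transgene, and none passed. C-type lectins Clec10a and Clec4d had log2 fold changes of -1.01 ± 0.32 and -0.88 ± 0.62. Siglecs Cd33 and Siglece had -1.07 ± 0.37 and -0.28 ± 0.42, and the CD14-related genes Cd180 and Ly86 had -0.43 ± 0.33 and -0.00 ± 0.35. Lysosomal glycoproteins Cd63 and Gpnmb had -1.04 ± 0.83 and -0.51 ± 1.05, with overlapping libraries. Paired receptors Cd300lb and Cd48 had -1.42 ± 0.31 (limma adjusted p = 0.1004) and -1.25 ± 0.53. Adam17, a sheddase that cleaves membrane receptors, had 0.88 ± 0.20 (limma adjusted p = 0.114).

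**Figure D4:**
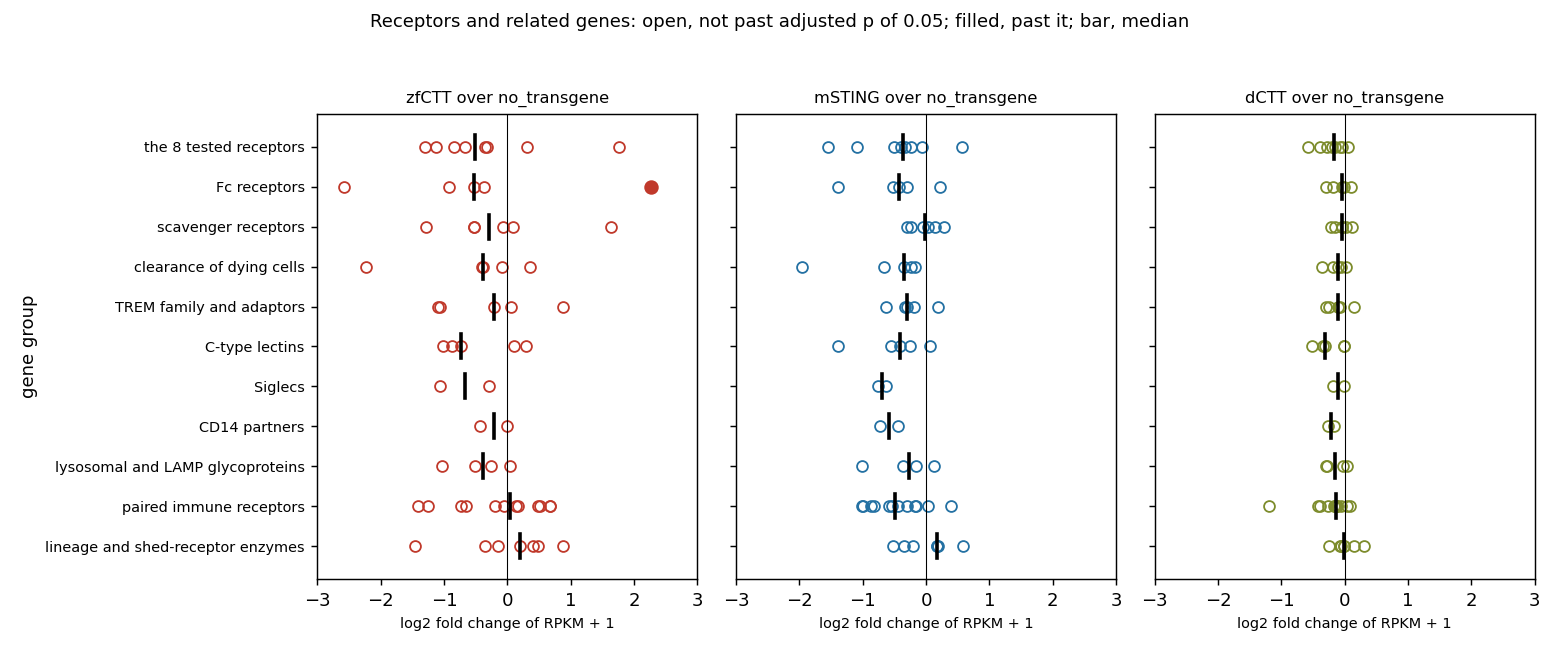
Log2 fold change of RPKM + 1 over no_transgene in zfCTT, mSTING and dCTT for the 8 tested members and the companion groups, 1 circle per gene and a bar at the median. The filled circle, past the adjusted threshold, is Fcgr4 in zfCTT (2.27); all others are open.

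Fcgr1 was also used to find genes with the most similar profile, among tested genes with unnamed gene models left out. Over the 8 libraries the 5 highest Pearson correlations of log2(RPKM + 1) were with N4bp1 (0.986), Samhd1 (0.984), Morc3 (0.982), H2-T24 (0.981) and Mndal (0.980). The libraries share their group and their depth, so these values describe likeness of pattern only. H2-T24 read 11.4 and 3.70 RPKM in zfCTT, 3.21 and 0.676 in mSTING, 0.724 and 0.219 in dCTT, and 0.992 and 0.258 in no_transgene. As with Fcgr1, replicate 1 was higher in each group.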

How the data were processed

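The authors deposited RPKM, scaled to gene length and library size, for 8 libraries. The submitters' processing notes name cutadapt 1.16, HISAT2 2.1.0, GRCm38 and mm10. Counting tool, annotation and strandedness: not given in the sources used here. Because RPKM are not counts, limma 3.58.1 (R 4.3.3) was run on log2 values with a pseudocount of 1 and an intensity trend, in 1 fit over all 8 libraries (4 residual degrees of freedom). Tested genes reached 1 RPKM in 2 or more libraries. Reads were recovered by multiplying RPKM by GENCODE exon length. Of nonzero values, 95.0% to 95.6% came out whole (tolerance 0.05 read), and voom on these reads was an alternative. The recovered reads summed to more than the recovered depth in every library. In zfCTT replicate 1 they were 21.0 M against 20.1 M, and in dCTT replicate 2 185 M against 171 M. The reason was not tested. The method was checked on simulated data with independent errors and with changes placed only in genes of mean RPKM of at least 5. That check does not cover changes in lower genes or a library that stands apart. Errors beside fold changes are SE; 95% intervals are unadjusted. The members and the companion list were chosen with earlier results of these data known. Companions were named where past the threshold, and the 2 with the largest fold change of each family in zfCTT over no_transgene; 1 of these is not reported here. Replicate numbers come from the sample titles and did not enter the fit.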

Additional observations from a re-analysis of the deposited data

How the results depend on the processing

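Of 1005 single-gene values recomputed under other settings, 942 kept their direction and side of the threshold. Members called stayed at 0 in all 6 comparisons under every setting except 1. With the replicate number as a block (replicate block), 2 members passed between zfCTT and no_transgene, Fcgr1 (adjusted p = 0.0233) and Trem2 (0.0496), and 2 between zfCTT and dCTT, the same genes (0.0217 and 0.0462), with 0 in the other comparisons. The companion Fcgr4 passed with the block in zfCTT over mSTING too (adjusted p = 0.0314). The block called 432 genes between zfCTT and no_transgene against 146. Same-numbered libraries deviated together with r of 0.03 to 0.76 over 6 group pairs, and the numbers are not known to pair libraries. Median centring gave Cd14 in zfCTT over mSTING -0.070, Cd68 in zfCTT over mSTING -0.023 and Trem2 in mSTING over no_transgene 0.0069, and quantile normalization gave Cd14 in dCTT over no_transgene 0.0066. The cause was not tested. The 146 calls between zfCTT and no_transgene became 2 to 144 on leaving out 1 library (2 without zfCTT replicate 1 or no_transgene replicate 1, 49 without zfCTT replicate 2, 8 without no_transgene replicate 2, 10 without dCTT replicate 1 and 6 without dCTT replicate 2), 34 without a filter, 64 at a mean RPKM of at least 5, 32 with 2 groups, 354 with protein-coding genes alone, 53 by voom and 0 without both no_transgene replicate 1 and dCTT replicate 1, a setting chosen after seeing the data. Where leaving out 1 library turned a log2 fold change, the lowest and highest values, that added setting included, were as follows. Adgre1 had -0.12 to 0.74 in zfCTT over no_transgene and -0.82 to 0.036 in dCTT over no_transgene. Cd14 had -0.26 to 0.066 in dCTT over no_transgene and -0.20 to 0.21 in zfCTT over mSTING. Cd68 had -0.40 to 0.10 in dCTT over no_transgene, -0.29 to 0.40 in zfCTT over mSTING, -0.090 to 0.60 in dCTT over mSTING and -0.51 to 0.11 in zfCTT over dCTT. Fcgr1 had -0.11 to 1.23 in mSTING over no_transgene, -0.46 to 0.30 in dCTT over no_transgene and -1.31 to 0.027 in dCTT over mSTING. Fcgr3 had -0.39 to 0.86 in zfCTT over mSTING. Msr1 had -0.81 to 0.14 in zfCTT over mSTING and -0.047 to 0.49 in dCTT over mSTING. Cd36 had -0.37 to 0.18 in zfCTT over dCTT. Trem2 had -0.73 to 0.60 in mSTING over no_transgene, -0.61 to 0.71 in dCTT over no_transgene and -0.30 to 0.53 in dCTT over mSTING. Depth of 20.1 M reads and 67 reads for Msr1 in zfCTT replicate 1 limit the low genes.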

Other observations

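Values per library of some companion genes, chosen after they were seen, are given here. Cd163, the haemoglobin-haptoglobin scavenger receptor and like Mrc1 too low to be tested, read 0 and 0.0158 RPKM in zfCTT (0 and 3 reads), 0.0145 and 0.0415 in mSTING (7 and 20 reads), 0.220 and 0.206 in dCTT (67 and 193 reads), and 0.462 and 0.230 in no_transgene (70 and 127 reads). Gpnmb, a lysosomal and surface glycoprotein, read 47.2 and 176 RPKM in zfCTT, 51.6 and 197 in mSTING, 67.9 and 240 in dCTT, and 65.8 and 256 in no_transgene, so that its libraries differed more within a group than between groups. Cd63 read 2.48 and 12.6 RPKM in zfCTT, 2.97 and 11.4 in mSTING, 6.44 and 16.7 in dCTT, and 9.42 and 18.1 in no_transgene, with the same library higher in each group.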
